A study of Mus musculus with 4 samples.

Results

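The 90 cytochrome P450 genes described here were those on the array whose symbol, found through the RefSeq accession of the probe, had the form Cyp, family number, subfamily letters and gene number. They were measured by 111 of 55681 probes and were 90 of 21154 genes that could be named in this way. The form leaves out Cyp51, and Cyp2a5, Cyp2c40, Cyp2c69, Cyp2j7 and Cyp2j12 were not analysed here. By known or assumed substrate, 15 genes were classed with steroids, bile acids and vitamin D, 3 with retinoids, 25 with fatty acids and eicosanoids, 42 with xenobiotics and 5 with none of these.

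Thymospheres are floating clusters that cells from a digested thymus form in dishes to which they cannot attach. Adult spheres came from C57Bl6/N mice aged 5 to 6 weeks and embryonic spheres from C57Bl6/N embryos at day 14.5. Both were grown for 7 days in a medium with B27, hydrocortisone, insulin, EGF and bFGF, so no group was free of added glucocorticoid, and fresh medium was given on day 5. Each group had 2 samples, each on its own 1-colour array of 1 slide. Which replicates were biological and which technical is not given in the labels, so the p-values reflect only the scatter of these samples, part of which may be technical. Each group had its own slide positions, so effects of position and of age cannot be told apart. The spheres hold whatever thymic cells grew, and in such bulk RNA fewer cells of a type and less RNA per cell cannot be told apart.

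Cytochrome P450 enzymes are haem proteins that put an oxygen atom into their substrates, with electrons passed on by P450 oxidoreductase in the endoplasmic reticulum or by ferredoxin in mitochondria. Some make or clear signals, such as steroid hormones, bile acids, vitamin D, retinoic acid and eicosanoids, and do so on few substrates. Others, most abundant in liver, take many foreign compounds, and several of these are switched on by receptors that bind such compounds. In the thymus, P450 enzymes are known for local steroid synthesis, while retinoic acid, whose levels Cyp26 enzymes limit, acts on thymic mesenchyme and epithelium.

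Of the 90 genes, 37 had enough signal to be tested, and in a test over all genes 13 of them were called higher in adult spheres, where 17.5% of all tested genes were, and 5 lower, where 36.1% of all were. The lower calls, Cyp2f2, Cyp1b1, Cyp2r1, Cyp4f13 and Cyp17a1, were the P450 calls with signal on all 4 arrays. The start regions of 4 of them, from 250 bases before to 50 bases after the annotated start, are shown because these genes moved the same way, with the sequences and positions taken from RefSeq on GRCm38.p6 and written 5′ to 3′ on the gene's strand. Capitals mark GCGTG or, on the other strand, CACGC, the core that the aryl hydrocarbon receptor with Arnt binds. The windows are chr7:27119705-27120004 for Cyp2f2 on the plus strand, chr17:79715012-79715311 for Cyp1b1, chr7:114562923-114563222 for Cyp2r1 and chr17:32947312-32947611 for Cyp4f13, these 3 on the minus strand. A promoter of Cyp17a1 was not used here.
Cyp2f2: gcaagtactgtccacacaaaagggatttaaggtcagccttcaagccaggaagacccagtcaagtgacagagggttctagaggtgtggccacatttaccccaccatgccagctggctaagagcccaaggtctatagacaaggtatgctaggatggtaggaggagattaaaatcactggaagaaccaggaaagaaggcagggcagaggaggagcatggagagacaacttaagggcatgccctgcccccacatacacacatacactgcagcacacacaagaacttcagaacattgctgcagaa
Cyp1b1: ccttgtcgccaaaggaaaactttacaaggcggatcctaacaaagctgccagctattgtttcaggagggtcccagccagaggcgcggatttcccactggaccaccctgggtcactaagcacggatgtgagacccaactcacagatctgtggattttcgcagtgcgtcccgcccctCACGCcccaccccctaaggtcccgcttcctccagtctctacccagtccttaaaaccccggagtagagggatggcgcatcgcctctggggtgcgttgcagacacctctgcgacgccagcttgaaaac
Cyp2r1: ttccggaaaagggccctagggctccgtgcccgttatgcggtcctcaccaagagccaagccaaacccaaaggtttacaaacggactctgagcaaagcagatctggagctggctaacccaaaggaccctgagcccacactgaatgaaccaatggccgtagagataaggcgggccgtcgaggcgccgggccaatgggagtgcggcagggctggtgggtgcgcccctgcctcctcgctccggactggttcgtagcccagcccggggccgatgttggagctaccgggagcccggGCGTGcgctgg
Cyp4f13: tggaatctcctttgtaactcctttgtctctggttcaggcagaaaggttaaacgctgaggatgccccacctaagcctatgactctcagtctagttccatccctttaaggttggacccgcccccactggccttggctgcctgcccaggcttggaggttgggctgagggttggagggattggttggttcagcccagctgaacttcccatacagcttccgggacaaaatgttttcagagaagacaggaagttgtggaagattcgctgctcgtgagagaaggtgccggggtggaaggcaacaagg

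The core was found once each in the windows of Cyp1b1 and Cyp2r1, and not in those of Cyp2f2 and Cyp4f13. It is a short motif, held on either strand by 32.4% of 32851 mouse start regions of this length and by 20.3% of 79 start regions that belong to 69 of the P450 genes. The nuclear receptor half-site AGGTCA and the glucocorticoid receptor half-site AGAACA, each sought on both strands, were found once each in the Cyp2f2 window and in none of the other 3. They occurred in 16.3% and 19.0% of all start regions, and each in 26.6% of the P450 ones. The TATA box letters TATAAA, sought on the gene's strand only, were in none of the 4 windows, against 26.6% of P450 start regions and 8.32% of all. The 2 matches in the Cyp2f2 window do not overlap, and a match describes the letters only.

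Detection of the P450 genes differed between arrays. On adult arrays 1 and 2, 63 and 37 of the 90 genes had a probe well above background, against 34 and 23 on embryonic arrays 1 and 2. As shares these were 70.0% and 41.1% on adult arrays, against 37.8% and 25.6% on embryonic arrays. Among all named genes the shares were 81.4% and 59.1% on adult arrays, against 63.5% and 52.3% on embryonic arrays, so a smaller share of the P450 genes had signal on each of the 4 arrays. Sensory receptor genes, taken as genes of little expected use outside sense organs, had shares of 53.5% and 24.9% on adult arrays, against 6.69% and 2.47% on embryonic arrays. Signal from genes of that kind was therefore far more frequent on the adult arrays, and its part in the detection of P450 genes there was not tested.

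**Figure D1:**
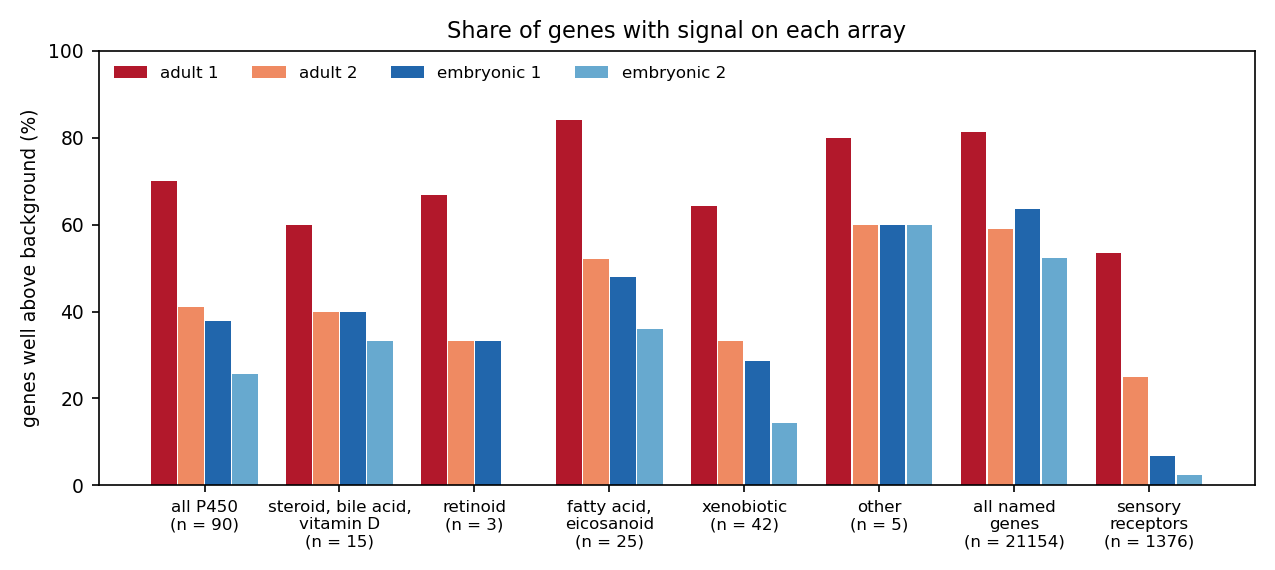
Share of genes with at least 1 probe well above background (y axis, percent of the genes in the set) on each of the 4 arrays, for all P450 genes, their 5 classes, all named genes and sensory receptor genes (x axis, number of genes in brackets). Bars are single arrays with no error bar, and adult 1 is the tallest bar of each set, at 70.0% for P450 genes against 25.6% on embryonic 2.

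Signal on all 4 arrays was found for 21 P450 genes, on no array for 24, and on adult arrays alone for 31, of which 23 had it on adult array 1 only. Only Cyp2b10 and Cyp2c66, with 1 embryonic array each, had signal on embryonic arrays alone, and no gene had it on both embryonic arrays and neither adult one. The class of fatty acid enzymes was the most often detected of the 4 substrate classes on each array, with 21 and 13 of 25 genes on adult arrays, against 12 and 9 on embryonic arrays. Xenobiotic enzymes were seen in 27 and 14 of 42 genes on adult arrays, against 12 and 6 on embryonic arrays. The 24 genes without signal included Cyp11a1, which starts steroid synthesis from cholesterol, the steroid 11β-hydroxylase Cyp11b1, Cyp24a1 and Cyp27b1, which clear and activate vitamin D, Cyp27a1 and Cyp7a1 of bile acid synthesis, Cyp26a1, and the liver drug enzyme Cyp1a2. The others were Cyp2b19, Cyp2c23, Cyp2c39, Cyp2c50, Cyp2c54, Cyp2c55, Cyp2c65, Cyp2d10, Cyp2d34, Cyp2g1, Cyp2j5, Cyp2w1, Cyp3a25, Cyp3a44, Cyp4f15 and Cyp4f37. The 23 genes with signal on adult array 1 only were Cyp1a1, Cyp2a12, Cyp2a22, Cyp2ab1, Cyp2b9, Cyp2c29, Cyp2c67, Cyp2c68, Cyp2d12, Cyp2d13, Cyp2d26, Cyp2j11, Cyp2u1, Cyp3a57, Cyp3a59, Cyp4a14, Cyp4a32, Cyp4f39, Cyp4f40, Cyp4x1, Cyp11b2, Cyp19a1 and Cyp26c1, and for Cyp2a12, Cyp2a22, Cyp2d12 and Cyp2j11 among them the value of adult array 2 was dropped as an outlier. Cyp2c70, Cyp2d22, Cyp3a13 and Cyp4a31 had signal on 1 array of each group.

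For the comparison, a probe was tested if both arrays of either group had it well above background. This admitted 37 of the 90 P450 genes. Admitting a gene only through the group in which it was bright favours a gap between the groups, without forcing one. The counts below therefore describe the tested genes and not the family. Signals are given as log2 units above or below the 75th percentile of the array, and fold changes as adult minus embryonic log2 values from limma with Benjamini-Hochberg adjustment over 13667 genes. For a gene dim on both arrays of a group the fold is a bound, written as at least so many fold, that rests on the lowest signals these arrays measured above background. An adjusted p beside a bound belongs to the fitted fold change on the measured values, dim ones included, and not to the bound. At an adjusted p under 0.05, 13 of the 37 P450 genes were called higher in adult spheres and 5 lower. Their median log2 fold change was 0.04, against -0.79 over all tested genes, of which 53.5% were called in either direction. Of the 329 sensory receptor genes that were tested, 286 were called higher and 6 lower in adult spheres, with a median log2 fold change of 3.27.

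The 2 directions differed in signal. All 5 lower calls were well above background on all 4 arrays, as were 4211 of the 4927 lower calls over all genes. Of the 13 higher calls none was, since 9 were dim on both embryonic arrays, 3 on 1 of them, and for 1 (Cyp39a1) a value of adult array 2 had been marked as an outlier and dropped. Over all genes, 1713 of 2388 higher calls (71.7%) were likewise dim on both embryonic arrays. With dim values raised to the array's lowest well-above-background signal, 5 of the 13 P450 higher calls were left. These were Cyp2b23, Cyp3a11, Cyp4a29, Cyp4b1 and Cyp39a1, and over all genes 1398 were then called higher. Among the 21 P450 genes with signal on all 4 arrays, 5 were called lower and none higher, where 43.7% of the 9626 genes with such signal were called lower and 2.36% higher. In 15 of the 21 the groups were free of overlap, with adult arrays lower in 14, where 75.4% of the 9626 genes had adult arrays lower, and higher in 1, where 6.6% had. The median log2 fold change of the 21 was -0.77, against -0.97 over the 9626.

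The counts of lower calls followed the scaling of the arrays. When arrays were centred by the median of their tested genes, only Cyp2f2 was still called lower, and when they were centred by that of all probes there were 19 lower calls, while higher calls numbered 15 and 10 under these scalings. Without either adult array 1 or adult array 2 no gene of any kind passed the adjusted threshold, and 13 and 16 P450 genes then had an unadjusted p under 0.05.

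Cyp2f2, known in mice as the enzyme of airway club cells that activates naphthalene, was the most changed of the 5. Its log2 signal was 1.00 and 0.27 on adult arrays, against 4.65 and 3.50 on embryonic arrays. The groups lay far apart, by more than the spread within either of them. The log2 fold change was -3.44 (SE 0.51, adjusted p = 0.00912, 95% interval -4.71 to -2.17), which is 10.9-fold more signal in embryonic spheres. Under 19 other settings it ran from -4.63 to -2.51, and its call was lost only without 1 of the adult arrays (adjusted p = 0.0779 without adult 1 and 0.091 without adult 2). Of the other club cell markers listed, Scgb3a2 was dim on all arrays, Scgb1a1 was above background on 1 array of each group, Scgb3a1 was called higher in adult spheres (log2 fold change 2.88, SE 0.66, adjusted p = 0.0192), and Aldh1a7, dim on both adult arrays, was called lower.

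Cyp1b1, which oxidises polycyclic hydrocarbons and oestradiol and is a target of the aryl hydrocarbon receptor, had 2.54 and 2.55 on adult arrays, against 4.73 and 3.47 on embryonic arrays. The 2 adult arrays gave almost the same value and both embryonic arrays were higher, though less alike. The log2 fold change was -1.56 (SE 0.48, adjusted p = 0.0415). The call was lost under 10 of 19 other settings, with adjusted p of 0.0955 without embryonic array 1 (log2 fold change -0.92), 0.226 with the tested genes centred (-0.90), 0.263 with quantile normalization (-0.67), 0.391 with the percentile over probes detected on all arrays (-0.62) and 0.242 in the deposited value table (-0.56).

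Cyp1a1, the best known target of the same receptor, was well above background on adult array 1 alone and was not tested, and Cyp1a2 was dim throughout. Among 4 tested genes of a list of other aryl hydrocarbon receptor targets, 1 was called lower and 1 higher in adult spheres, where 36.1% and 17.5% of all tested genes were. Nqo1, a quinone reductase, was lower (log2 fold change -2.97, SE 0.45, adjusted p = 0.00942). Ahrr, the repressor of that receptor, was at least 2.80-fold higher (adjusted p = 0.00998), being dim on both embryonic arrays. Aldh3a1 (-0.63, SE 0.31, adjusted p = 0.131) and Tiparp (-0.40, SE 0.30, adjusted p = 0.282) were not called. The receptor gene Ahr itself had -0.47 and -0.79 on adult arrays, against 0.30 and 0.26 on embryonic arrays. Those groups did not overlap, but the difference did not pass (log2 fold change -0.91, SE 0.31, adjusted p = 0.0536).

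The other 3 xenobiotic enzymes with signal on all 4 arrays were not called. Cyp2d11 had 0.26 and 0.30 on adult arrays, against 1.07 and 1.12 on embryonic arrays (log2 fold change -0.82, SE 0.30, adjusted p = 0.0625). Cyp2c37, which in mice oxidises arachidonic acid, had -1.28 and -1.53 on adult arrays, against -0.96 and -0.31 on embryonic arrays (log2 fold change -0.77, SE 0.36, adjusted p = 0.118). In both genes the adult arrays lay below the embryonic ones. The groups of Cyp2c38, of the same subfamily, nearly touched by the probe used, with -0.44 and -1.46 on adult arrays, against -0.40 and -0.41 on embryonic arrays (log2 fold change -0.54, SE 0.43, adjusted p = 0.307). Its second probe gave another answer, with 0.30 and -0.46 on adult arrays and no signal above background on embryonic arrays, which bounds the adult excess at 5.18-fold or more (adjusted p = 0.0083 in a fit over probes).

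**Figure D2:**
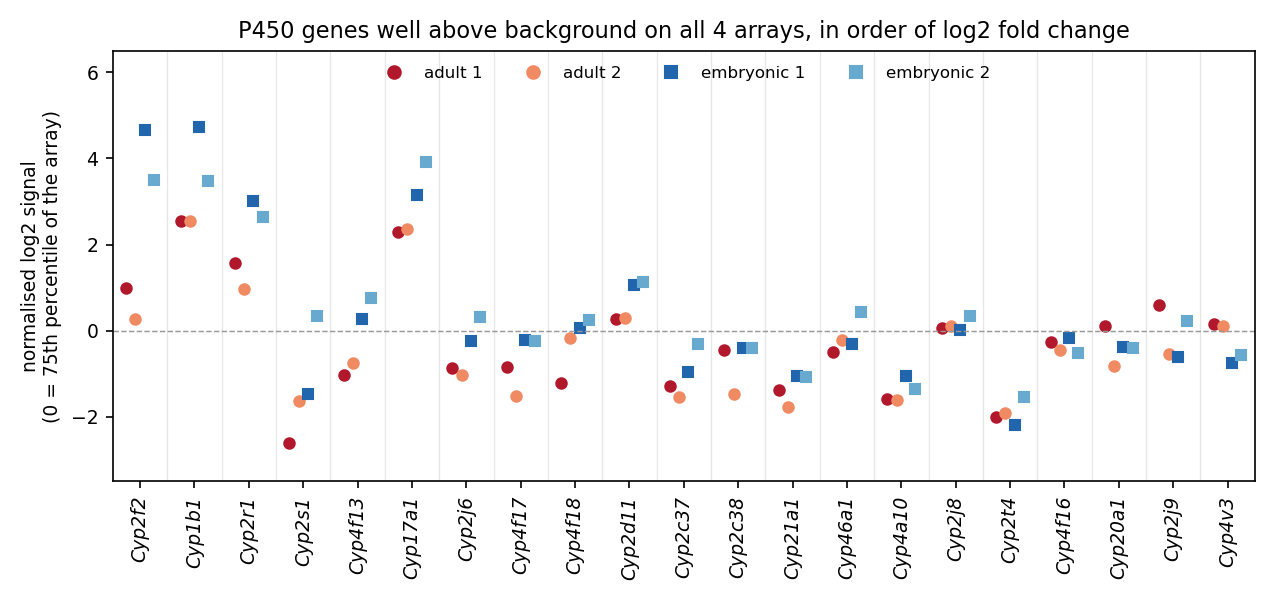
Normalised log2 signal (y axis, 0 is the 75th percentile of the array) of the 21 P450 genes well above background on all 4 arrays, in order of log2 fold change (x axis). Circles are adult and squares embryonic arrays, 1 symbol per array, and levels of different genes come from different probes and cannot be ranked. In 14 genes, among them Cyp2f2, Cyp1b1, Cyp2r1, Cyp4f13 and Cyp17a1, both circles lie below both squares, and in Cyp4v3 both lie above.

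Of 13 tested xenobiotic enzymes, 8 were called higher and 2 lower in adult spheres, where 17.5% and 36.1% of all tested genes were. Their median log2 fold change was 2.36, against -0.79 over all tested genes. The 8 higher ones had low signal and were tested through the adult arrays alone, which favours a gap between the groups. Cyp3a11, the main adult liver enzyme of its subfamily and a target of the pregnane X receptor, had 0.45 and -0.47 on adult arrays, while both embryonic arrays, at -3.45 and -3.83, were not above background. The bound that the dim arrays allow puts it at least 5.43-fold higher in adult spheres (fitted log2 fold change 3.63, SE 0.42, adjusted p = 0.00748). A second Cyp3a11 probe did not show this, being dim on all 4 arrays, with -5.07 and -4.19 on adult arrays, against -5.03 and -3.61 on embryonic arrays. Cyp3a16, known from fetal mouse liver, had -2.30 and -2.14 on adult arrays, against -5.43 and -3.95 on embryonic arrays, both dim, which bounds the fold at 1.17 or more (adjusted p = 0.0169). By the probes used, both of these genes had signal on the adult arrays and none above background on the embryonic ones. Of the other Cyp3a genes, none was tested, and Cyp3a13 had signal on embryonic array 1 by 1 probe and on adult array 2 by another.

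The rest of these calls fell in family 2. Cyp2b23 had -0.47 and -0.39 on adult arrays, against dim values of -5.37 and -3.95 on embryonic arrays (at least 4.06-fold higher, adjusted p = 0.00756). Cyp2b13, a female-type liver enzyme of mice, had -1.39 and -0.65 on adult arrays, against dim values of -3.16 and -3.90 on embryonic arrays (at least 2.70-fold higher, adjusted p = 0.0115). The relative that phenobarbital induces in liver, Cyp2b10, was not tested, with signal on 1 embryonic array only. Cyp2d40 had -0.90 and -1.09 on adult arrays, against dim values of -4.46 and -3.99 on embryonic arrays (at least 2.74-fold higher, adjusted p = 0.00734). Cyp2d9, a testosterone 16α-hydroxylase of male mouse liver, had -0.90 and -1.35 on adult arrays, against -2.99 and -3.99 on embryonic arrays, the last of them dim (log2 fold change 2.36, SE 0.44, adjusted p = 0.0129). These 4 genes were tested through the adult arrays alone, so the filter itself favoured a gap between the groups. With dim values raised to the array's lowest well-above-background signal, Cyp2b23 was still called (adjusted p = 0.0261). The calls of Cyp2b13 (0.0726), Cyp2d40 (0.058) and Cyp2d9 (0.0766) were then lost. Cyp2a4, a testosterone 15α-hydroxylase in mice, had -0.44 and -1.51 on adult arrays, against -2.14 and -3.63 on embryonic arrays (log2 fold change 1.92, SE 0.63, adjusted p = 0.0477). Its call was lost under 12 of 18 other settings, and its other probe overlapped between the groups, with -0.77 and -2.13 on adult arrays, against -1.16 and -1.82 on embryonic arrays.

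Cyp2e1, which oxidises ethanol, had -1.20 and -0.61 on adult arrays, against dim values of -5.17 and -3.70 on embryonic arrays (at least 2.92-fold higher, adjusted p = 0.0101). The call was lost with dim values raised to the array's lowest well-above-background signal (log2 fold change 1.54, adjusted p = 0.0561). The second Cyp2e1 probe did not show an adult excess, being dim on both adult arrays and above background on embryonic array 1 only.

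Of 5 P450 probes whose spots on adult array 2 were marked as outliers, 4 stood for genes that were left untested for that reason. Cyp2a12, Cyp2a22, Cyp2d12 and Cyp2j11 were bright on adult array 1 and dim on both embryonic arrays, and the dropped values on adult array 2 were 0.89, 0.87, 2.32 and 2.05. With outlier spots kept, these 4 genes were called higher too. Adult array 2 had 2756 such spots, with a median signal of 156, while adult array 1 had 185 and the embryonic arrays 120 and 95.

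**Figure D3:**
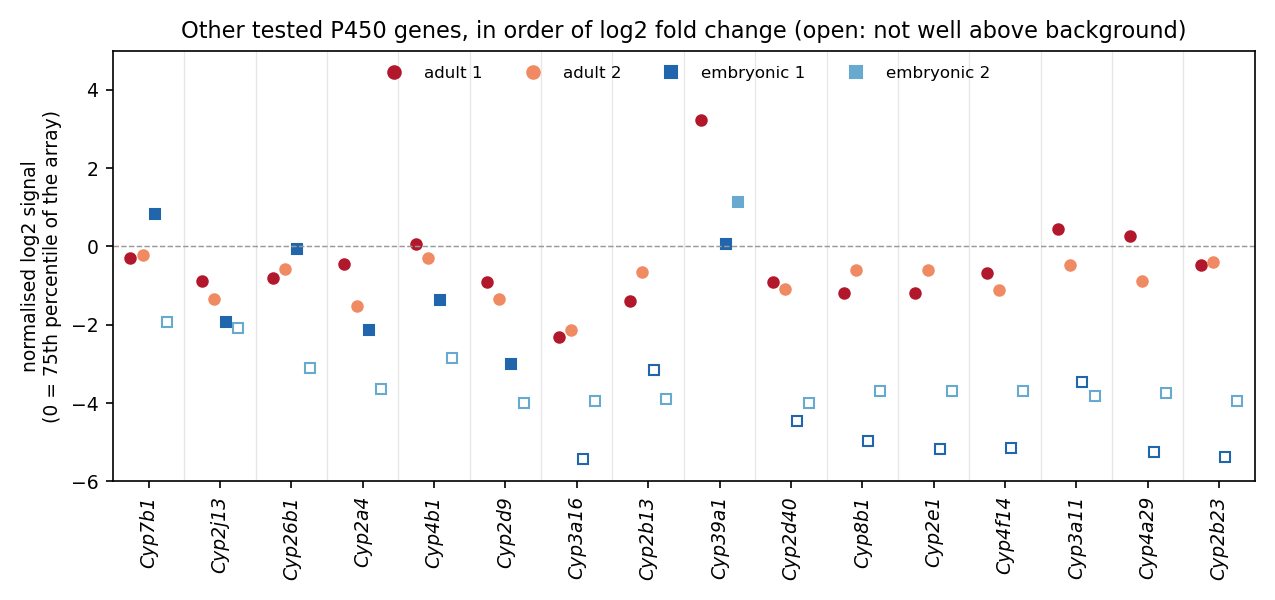
Normalised log2 signal (y axis, 0 is the 75th percentile of the array) of the other 16 tested P450 genes, in order of log2 fold change (x axis). Circles are adult and squares embryonic arrays, 1 symbol per array, and open symbols were not well above background. From Cyp3a16 rightwards, apart from Cyp39a1, every square is open.

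The steroid, bile acid and vitamin D enzymes moved in both directions, with 2 of 7 tested genes called higher and 2 lower in adult spheres. Of all tested genes 17.5% were called higher and 36.1% lower. The median log2 fold change of the 7 genes was -0.41, against -0.79 over all tested genes. Cyp2r1, the enzyme that makes 25-hydroxyvitamin D, had 1.56 and 0.97 on adult arrays, against 3.02 and 2.63 on embryonic arrays. Both adult arrays lay below both embryonic ones, and the log2 fold change was -1.56 (SE 0.36, adjusted p = 0.02). The call was lost under 7 of 19 other settings, among them the centring of the tested genes (-0.91, adjusted p = 0.102), quantile normalization (-0.87, 0.116), the deposited value table (-0.75, 0.078) and the percentile over probes detected on all arrays (-0.63, 0.239). Its second probe was near background, with signal on 1 array of each group. The next vitamin D enzymes, Cyp27b1 and Cyp24a1, were dim on all arrays, while the vitamin D receptor gene Vdr was called higher in adult spheres on the value of 1 adult array, with 2.00 on adult array 1, against -1.94 and -0.91 on embryonic arrays (log2 fold change 3.42, SE 0.58, adjusted p = 0.0138).

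Cyp17a1, the 17α-hydroxylase and 17,20-lyase of sex steroid synthesis, had 2.28 and 2.36 on adult arrays, against 3.16 and 3.91 on embryonic arrays. The adult values were close together and below both embryonic ones, and the difference passed the test (log2 fold change -1.21, SE 0.37, adjusted p = 0.0409). The call was lost under 9 of 19 other settings, with log2 fold changes of -0.83 without embryonic array 2 (adjusted p = 0.124), -0.55 with the tested genes centred (0.302), -0.40 in the deposited value table (0.367), -0.38 with quantile normalization (0.473) and -0.28 with the percentile over probes detected on all arrays (0.667). Cyp21a1, the 21-hydroxylase of glucocorticoid and mineralocorticoid synthesis, had -1.38 and -1.77 on adult arrays, against -1.06 and -1.07 on embryonic arrays (log2 fold change -0.51, SE 0.32, adjusted p = 0.212). The side-chain cleavage enzyme Cyp11a1 that makes the precursor of these steroids was dim on all arrays, Cyp11b2 (aldosterone synthase) and Cyp19a1 (aromatase) had signal on adult array 1 only and were not tested, and Cyp11b1 had none.

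The cholesterol and bile acid enzymes gave both higher calls of this class. Cyp8b1, the sterol 12α-hydroxylase of bile acid synthesis, had -1.19 and -0.59 on adult arrays, against dim values of -4.98 and -3.70 on embryonic arrays (at least 2.96-fold higher, adjusted p = 0.00926). Cyp39a1, which hydroxylates 24-hydroxycholesterol, had 3.23 on adult array 1, against 0.06 and 1.13 on embryonic arrays (log2 fold change 2.63, SE 0.59, adjusted p = 0.0238). The dropped value of adult array 2 for Cyp39a1 was 3.0, and the call rests on 1 adult array as fitted. Cyp46a1, the cholesterol 24-hydroxylase, overlapped between the groups, with -0.49 and -0.21 on adult arrays, against -0.32 and 0.44 on embryonic arrays (log2 fold change -0.41, SE 0.39, adjusted p = 0.381). For Cyp7b1, the oxysterol 7α-hydroxylase, the 2 embryonic arrays disagreed, with values of -0.29 and -0.22 on adult arrays, against 0.83 on embryonic array 1 and a dim -1.92 on embryonic array 2 (log2 fold change 0.29, SE 0.88, adjusted p = 0.787). It was called higher in adult spheres without embryonic array 1 and had a log2 fold change of -1.09 without embryonic array 2.

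Among 15 tested genes of steroid synthesis and conversion outside the P450 family, 4 were called higher and 3 lower in adult spheres. Of all tested genes 17.5% were called higher and 36.1% lower. The median log2 fold change of the 15 genes was -0.48, against -0.79 over all tested genes. The higher ones included Hsd3b2 (at least 2.95-fold) and Hsd3b6 (at least 2.50-fold), which convert 3β-hydroxysteroids and were dim on both embryonic arrays, and Hsd17b1, with a log2 fold change of 1.71. The lower ones were Hsd17b4 (-1.41), Stard3 (-1.30) and Hsd17b12 (-1.09), which were called no longer with the tested genes centred. Star, which brings cholesterol to Cyp11a1, was above background on 1 adult array only, and Hsd11b1, which regenerates active glucocorticoid, did not pass (log2 fold change 1.08, SE 0.50, adjusted p = 0.112). Of 6 markers of steroidogenic cells, 4 and 2 had signal on adult arrays, against 2 and 2 on embryonic arrays, with Cyp11a1 and Hsd3b1 dim on all. Their signal was summed over all probes of these genes, as multiples of the 75th percentile, with dropped outlier values left out. The sums were 15.2 and 11.7 on adult arrays, against 29.2 and 18.0 on embryonic arrays. Such a sum is weighted to the brightest gene, here Fdx1, with 2.74 and 2.31 on adult arrays, against 3.84 and 3.19 on embryonic arrays. Nr5a1 lay the other way, with 0.01 and 0.77 on adult arrays, against -0.21 and -0.46 on embryonic arrays, as did the mostly dim Star. Neither Fdx1 nor Nr5a1 was called.

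Of the 3 retinoic acid hydroxylases, Cyp26b1 alone could be tested. It had -0.80 and -0.57 on adult arrays, against -0.07 on embryonic array 1 and a dim -3.10 on embryonic array 2. The embryonic arrays lay on either side of the adult ones, so the log2 fold change of 0.90 had an interval of -1.50 to 3.30 (SE 0.96, adjusted p = 0.439). Cyp26c1 had signal on adult array 1 only and Cyp26a1 on none. Of 16 tested genes of retinoid synthesis and handling, 10 were called lower and 1 higher in adult spheres, where 36.1% and 17.5% of all tested genes were, and their median log2 fold change was -1.61, against -0.79 over all tested genes. The lower ones included the alcohol dehydrogenase Adh1 (-4.25, SE 0.63, adjusted p = 0.00912), the receptor gene Rarb (-2.30, SE 0.31, adjusted p = 0.00833) and Crabp1, which binds retinoic acid in the cytosol (-2.16, SE 0.49, adjusted p = 0.019). Embryonic spheres had at least 4.13-fold more signal of Aldh1a7, adult spheres had at least 1.96-fold more of Lrat, which esterifies retinol, and Aldh1a2, which makes retinoic acid, did not pass (log2 fold change -0.46, SE 0.58, adjusted p = 0.507). With the tested genes centred 4 of the 10 lower calls were left.

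The fatty acid and eicosanoid enzymes were mostly uncalled. Of 13 tested genes, 3 were called higher and 1 lower in adult spheres, where 17.5% and 36.1% of all tested genes were. Their median log2 fold change was -0.01, against -0.79 over all tested genes. Cyp4f13 had -1.02 and -0.76 on adult arrays, against 0.27 and 0.75 on embryonic arrays (log2 fold change -1.40, SE 0.34, adjusted p = 0.0219). It belongs to a subfamily whose members hydroxylate leukotrienes and fatty acids at the chain end, and its groups did not overlap. The Cyp4f13 call was lost under 6 of 19 other settings, among them normexp background correction (-0.64, adjusted p = 0.0911), the centring of the tested genes (-0.74, 0.159) and the percentile over probes detected on all arrays (-0.46, 0.414).

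The other Cyp4f genes with signal on all arrays did not pass. Cyp4f17 had -0.84 and -1.52 on adult arrays, against -0.21 and -0.25 on embryonic arrays (log2 fold change -0.95, SE 0.36, adjusted p = 0.0701). Cyp4f18, the leukotriene B4 hydroxylase of mouse neutrophils, had -1.21 and -0.18 on adult arrays, against 0.07 and 0.25 on embryonic arrays (-0.86, SE 0.43, adjusted p = 0.138). In both genes the adult arrays were the lower ones. Cyp4f16 overlapped, with -0.26 and -0.45 on adult arrays, against -0.18 and -0.51 on embryonic arrays (-0.01, SE 0.32, adjusted p = 0.985). Cyp4f14, by contrast, had -0.68 and -1.10 on adult arrays, against dim values of -5.16 and -3.69 on embryonic arrays, which bounds the adult excess at 2.96-fold or more (adjusted p = 0.00965). The test of Cyp4f14 against its relatives was not made.

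Cyp4b1 and Cyp4a29 of family 4 were also called higher. Cyp4b1, a fatty acid hydroxylase known from lung, had 0.06 and -0.30 on adult arrays, against -1.37 and a dim -2.85 on embryonic arrays (log2 fold change 1.99, SE 0.55, adjusted p = 0.0297). Cyp4a29 had 0.28 and -0.89 on adult arrays, against dim values of -5.24 and -3.75 on embryonic arrays (at least 4.44-fold higher, adjusted p = 0.00956). In both genes every adult value was above every embryonic one, but both were tested through the adult arrays alone, which favours such a gap. Cyp4a10, the lauric acid hydroxylase that PPARα induces in liver, was uncalled by the used probe, at -1.58 and -1.61 on adult arrays, against -1.05 and -1.36 on embryonic arrays (-0.39, SE 0.31, adjusted p = 0.313). A second Cyp4a10 probe ran the other way, at -1.36 and -0.99 on adult arrays, against -3.04 and a dim -3.96 on embryonic arrays (2.32, SE 0.42, adjusted p = 0.012 in a fit over probes). Cyp4v3, the mouse counterpart of human CYP4V2, a fatty acid hydroxylase, had 0.16 and 0.10 on adult arrays, against -0.74 and -0.56 on embryonic arrays. It was the 1 P450 gene with signal on all 4 arrays whose adult values were both higher, and it missed the threshold (0.78, SE 0.30, adjusted p = 0.0737). Cyp4v3 passed it with the tested genes centred and with signal required on all 4 arrays.

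The epoxygenases of the Cyp2j subfamily, which act on arachidonic and linoleic acid, had 4 tested members and no call. Cyp2j6 had -0.86 and -1.02 on adult arrays, against -0.25 and 0.32 on embryonic arrays (log2 fold change -0.97, SE 0.35, adjusted p = 0.0599). Cyp2j8 had 0.05 and 0.10 on adult arrays, against 0.01 and 0.34 on embryonic arrays (-0.10, SE 0.31, adjusted p = 0.791). The groups of Cyp2j6 were apart and those of Cyp2j8 overlapped. Cyp2j9 spread widely within both groups, with 0.60 and -0.54 on adult arrays, against -0.62 and 0.23 on embryonic arrays (0.23, SE 0.52, adjusted p = 0.721). Cyp2j13 had -0.87 and -1.35 on adult arrays, against -1.92 and a dim -2.08 on embryonic arrays (0.89, SE 0.33, adjusted p = 0.0678). Among 16 tested genes of other eicosanoid enzymes, 4 were called lower and 1 higher in adult spheres, where 36.1% and 17.5% of all were. Their median log2 fold change was -0.80, against -0.79 over all tested genes. Embryonic spheres had at least 3.54-fold more signal of Alox5, the 5-lipoxygenase, the epoxide hydrolase Ephx1 had a log2 fold change of -1.37 and the prostaglandin E synthase Ptges of -1.10, and Ptgs2, the inducible cyclooxygenase, was higher in adult spheres at 1.39.

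The remaining class had 3 tested genes and no call. Cyp2s1, an epithelial enzyme found outside the liver, had -2.60 and -1.64 on adult arrays, against -1.47 and 0.35 on embryonic arrays. Its groups were apart by little beside the spread of the embryonic arrays, and its difference of -1.56 log2 units (SE 0.69, adjusted p = 0.101) equalled that of Cyp1b1 without passing. Cyp20a1, an orphan P450, had 0.11 and -0.83 on adult arrays, against -0.39 and -0.41 on embryonic arrays (0.04, SE 0.41, adjusted p = 0.937). Cyp2t4 had -2.00 and -1.91 on adult arrays, against -2.19 and -1.54 on embryonic arrays (-0.09, SE 0.36, adjusted p = 0.84). For these last 2 genes the embryonic values fell inside or around the adult ones.

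**Figure D4:**
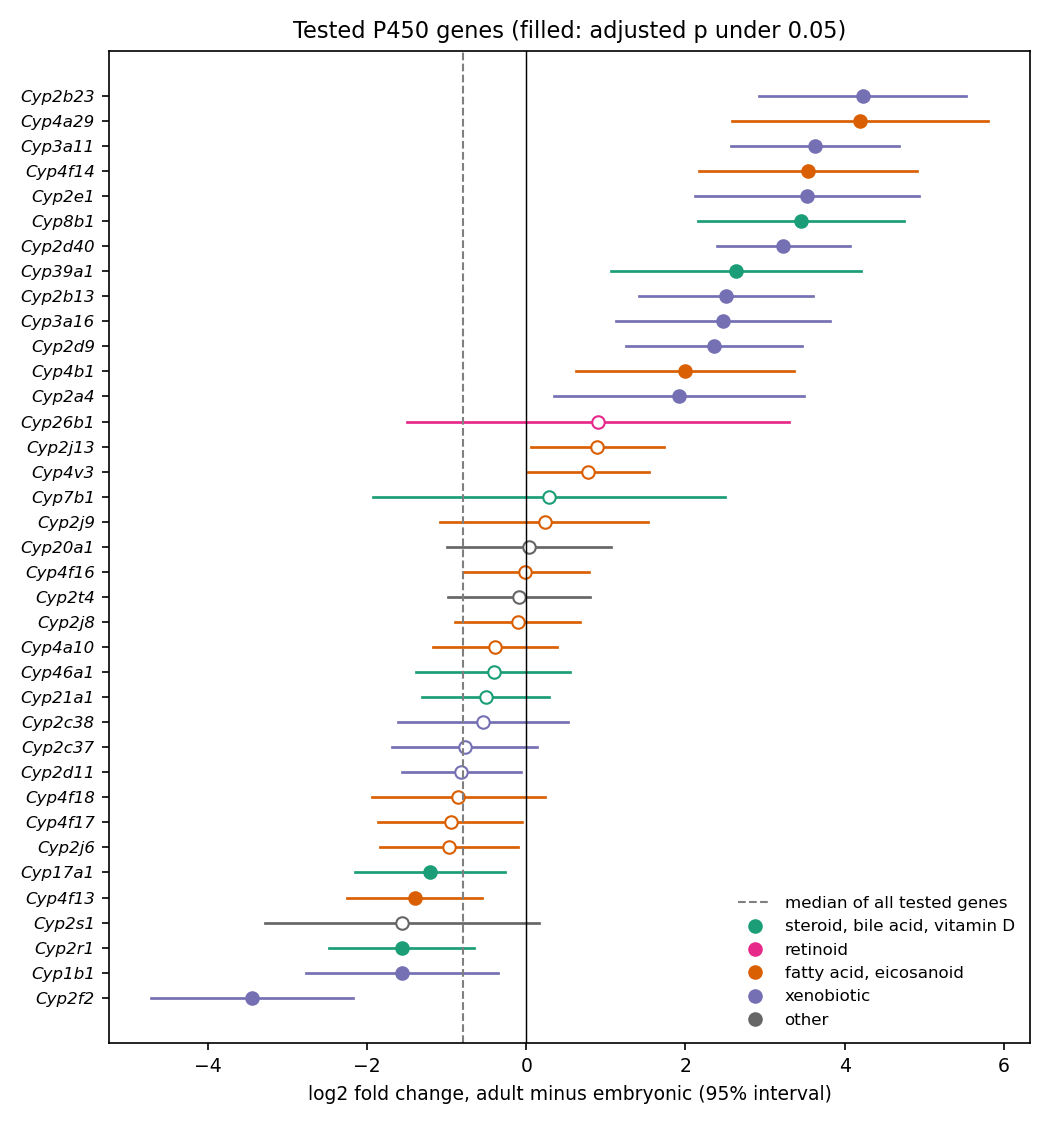
Log2 fold change, adult minus embryonic (x axis), of the 37 tested P450 genes (y axis), with lines for the 95% interval, colours for the class and filled circles for an adjusted p under 0.05. The dashed line is the median of all tested genes, at -0.79, and 5 filled circles lie left of 0 and 13 right of it.

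Several P450 subfamilies lie side by side in the genome, and neighbours there did not always share a direction. In the run that holds the Cyp2a, Cyp2b, Cyp2f, Cyp2g, Cyp2s and Cyp2t genes, 6 of 12 genes on the array were tested, 3 of them called higher (Cyp2a4, Cyp2b13 and Cyp2b23) and 1 lower (Cyp2f2) in adult spheres. In the run of 8 Cyp4f genes, 4 were tested, with 1 call in each direction. In the Cyp2c run, 12 genes were on the array, with 2 tested members and no call, and 5 were dim on all arrays. Cyp2c23, which lies outside that run, was dim on all arrays too. Of 6 genes in the Cyp3a run, 2 were tested and called higher, and 2 were dim on all arrays. Over all tested genes, 17.5% were called higher and 36.1% lower. The higher calls in these runs were of genes tested through the adult arrays alone, which favours a gap between the groups. Near relatives share sequence, and whether a probe also took up RNA of a neighbour was not tested. Where a gene had more than 1 tested probe, for Cyp2c38 and Cyp4a10, the probes disagreed. Other probes of Cyp2c37, Cyp2j6, Cyp2j8, Cyp2j13 and Cyp21a1 did not have the signal to be tested.

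Of the partners that hand electrons to P450 enzymes, 5 of 11 tested genes were called lower and none higher in adult spheres. Their median log2 fold change was -0.99. Of all tested genes 36.1% were called lower and 17.5% higher, with a median of -0.79. Among all genes with signal on all 4 arrays, as most of these partners had, 43.7% were called lower and 2.36% higher, with a median of -0.97. Por, the reductase of all P450 enzymes in the endoplasmic reticulum, had 3.19 and 2.91 on adult arrays, against 4.02 and 4.84 on embryonic arrays (log2 fold change -1.38, SE 0.40, adjusted p = 0.0333). Pgrmc1, which binds haem and P450 enzymes, had -1.75 (SE 0.34, adjusted p = 0.0137) and the cytochrome b5 reductase Cyb5r1 -1.48 (SE 0.35, adjusted p = 0.0199). None of these 5 calls was left with the tested genes centred. The mitochondrial partners did not pass, with log2 fold changes of -0.99 (SE 0.38, adjusted p = 0.0721) for Fdx1 and 1.02 (SE 0.45, adjusted p = 0.114) for Fdxr, whose value on adult array 2 was dropped.

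Of 17 tested regulators of P450 genes, 6 were called higher and 4 lower in adult spheres, where 17.5% and 36.1% of all tested genes were. Their median log2 fold change was -0.40, against -0.79 over all tested genes. The foreign compound receptors Nr1i3 and Nr1i2 were among the higher ones, Nr1i3 (constitutive androstane receptor) by at least 8.55-fold and Nr1i2 (pregnane X receptor) by at least 2.37-fold, both dim on the 2 embryonic arrays (Nr1i2 was singled out after its value was seen), while Ahr, described above, was not called. The lower ones included Arnt, partner of the aryl hydrocarbon receptor (-1.58, SE 0.31, adjusted p = 0.0143), Rxrb (-1.54, SE 0.31, adjusted p = 0.0148) and the glucocorticoid receptor gene Nr3c1 (-1.50, SE 0.32, adjusted p = 0.0167), and none of the lower calls was left with the tested genes centred. Of 13 genes of the glucocorticoid response, all with signal on all 4 arrays, 7 were called lower and none higher, with a median of -1.09. Over all genes with such signal 43.7% were called lower and 2.36% higher, with a median of -0.97. Zbtb16 had -2.46, Tsc22d3 -2.30 and Dusp1 -2.00, and 3 of the 7 calls were left with the tested genes centred.

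The 3 P450 genes outside the symbol rule differed from each other. Ptgis, the prostacyclin synthase, had 3.38 and 3.27 on adult arrays, against 0.04 and -0.10 on embryonic arrays. Both adult arrays were far above both embryonic ones, by 3.35 log2 units (SE 0.30, adjusted p = 0.00734), 10.2-fold more signal in adult spheres, and the call held under each of 4 other scalings. Cyp51 of cholesterol synthesis was lower at -1.26 (SE 0.35, adjusted p = 0.0301), and Tbxas1, the thromboxane synthase, did not pass (1.18, SE 0.57, adjusted p = 0.123).

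Markers of cells that could carry P450 RNA were set beside these values, and their part in any P450 difference was not tested. Of 10 hepatocyte markers, 9 and 5 had signal on adult arrays, against 8 and 1 on embryonic arrays, with Apoa1 dim on all. Their signals, summed over all probes, were 12.0 and 9.86 on adult arrays, against 12.2 and 8.21 on embryonic arrays. The brightest was Apoa2, with 2.17 and 2.30 on adult arrays, against 2.64 and 2.76 on embryonic arrays, and it was not called. Of 5 tested hepatocyte markers, 1 was called higher and none lower, where 17.5% and 36.1% of all tested genes were. The call was Ttr, dim on 1 embryonic array (log2 fold change 2.67, SE 0.77, adjusted p = 0.0335). Fibroblast markers (10 of 10 with signal on each array) summed to 429 and 426 on adult arrays, against 810 and 468 on embryonic arrays. Thymic epithelial markers, with 10 and 7 of 10 seen on adult arrays, against 8 and 8 on embryonic arrays, summed to 53.3 and 33.4 on adult arrays, against 160 and 278 on embryonic arrays. The 2 embryonic arrays thus ranked oppositely by fibroblast and epithelial markers, and of the 5 lower P450 calls Cyp2f2, Cyp1b1 and Cyp2r1 were brighter on embryonic array 1 and Cyp4f13 and Cyp17a1 on embryonic array 2. Of the other marker lists, adipocytes had 4 of 7 tested genes called higher, endothelium 4 of 6 and the T lineage 2 of 5, with no lower call, where 17.5% of all tested genes were called higher. All 4 adipocyte calls, 3 of the 4 endothelial calls and both T lineage calls were dim on both embryonic arrays, and 1 adipocyte call was left with quantile normalization or with all probes centred. The adipocyte markers with signal on all 4 arrays were not called, with log2 fold changes of -1.20 for Fabp4, -0.73 for Lpl and -0.56 for Pparg. Macrophages had 4 of 7 tested genes called lower, where 36.1% of all were. All 7 had signal on all 4 arrays, and 43.7% of genes with such signal were called lower. None of the 4 calls was left with the tested genes centred.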

How the data were processed

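Per the file headers, the authors scanned the 4 one-colour (Cy3) arrays and deposited spot intensity extracted with Feature Extraction 10.7.3.1, background-subtracted within each array. Per the labels' protocols, 25 ng of total RNA was labelled. Groups came from the sample titles. The processed intensity was taken as log2 minus the array's 75th percentile over non-control spots, which was 132 and 66.0 on adult arrays, against 126 and 61.5 on embryonic arrays. Outlier spots were dropped and spots of a probe averaged. Well above background is the flag that the authors' software deposited with each spot.

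Probes were named through RefSeq accessions (28026 of 55681, 50.3%), and each gene was represented by its tested probe with signal on all 4 arrays or, failing that, the highest mean. Adult minus embryonic was modelled in limma 3.58.1 (R 4.3.3, lmFit, eBayes) on all 4 arrays without covariates, and the script was checked on simulated data. Where a gene was dim on both arrays of a group, "at least N-fold" compares the bright mean with a floor. The floor of a dim array is its lowest signal well above background, or the probe's own signal where that is higher. These bounds depend on the scaling and carry no error.

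All tested P450 genes are named, with fixed further genes and up to 3 called members per direction of each context list. The members, classes and lists were chosen with earlier results of these data known. The normexp alternative used the median spot intensity, because a mean spot intensity was not used here. The deposited value table, also intensity, had medians of 34.4 and 35.0 on adult arrays and 35.7 and 35.1 on embryonic arrays, and correlated with the scanner values of the same array at 0.994 to 0.998 on the log2 scale. Its scale was linear, and the sources used here do not give how it was made.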

Additional observations from a re-analysis of the deposited data

How the results depend on the processing

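Across the alternatives no called P450 gene changed direction. P450 higher calls, 13 as reported, numbered 4 with normexp background correction, 1 with signal required on all 4 arrays and 5 with dim values raised to the array's lowest well-above-background signal, and 0 to 14 when 1 array was left out. P450 lower calls, 5 as reported, numbered 3 with normexp, 8 with quantile normalization, 19 with the median of all probes centred, 1 with the tested genes centred, 1 with the percentile over probes detected on all 4 arrays, 1 with no filter, 9 with signal required on all 4 arrays, 3 with the percentile taken without outlier spots, and 0 to 6 when 1 array was left out. None of the 13 reported higher calls was left with signal required on all 4 arrays, where the 1 higher call was Cyp4v3. With quantile normalization, and in the deposited value table, which also called 5 lower, only 2 of the 5 reported lower calls remained (Cyp2f2 and Cyp4f13), and Cyp1b1, Cyp2r1 and Cyp17a1 were lost. Over all genes 2388 higher calls became 830 with normexp, 329 with signal required on all 4 arrays and 1398 with dim values raised, with 0 to 2517 when 1 array was left out. The 4927 lower calls became 2545 with normexp, 9837 with all probes centred, 1042 with the tested genes centred, 476 with the percentile over probes detected on all 4 arrays and 930 with no filter, with 0 to 5063 when 1 array was left out. The counts of 0 came without either adult array, where limma left no adjusted call and 6435 and 5528 genes with an unadjusted p under 0.05. The share of calls that were higher in adult spheres was 32.6% as reported, 72.7% with the tested genes centred, 14.7% with all probes centred, 86.6% with the percentile over probes detected on all 4 arrays, 65.8% with no filter and 5.75% with signal required on all 4 arrays. These scalings placed the median log2 fold change of all genes at -0.14, -1.98 and 0.14 in place of -0.79. The causes of these differences were not tested, except that the fits on all-4 signal and without a filter tested 9626 and 21151 genes. With positive and significant in place of well above background, 58 P450 genes had signal on adult array 2, 58 on embryonic array 1 and 44 on embryonic array 2 (probes 68, 69 and 45).

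Outlier spots kept, the percentile without those spots and raised dim values were chosen after seeing the data. The replicate numbers were not shown to pair the samples, as their deviations correlated at 0.0704 over 13375 genes and there were 2 pairs. With the replicate number as a block, 12 of the 13 higher and all 5 lower P450 calls remained, Cyp39a1 could not be tested, Cyp2s1 was added, and 12 higher and 6 lower were called of 36 tested.

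Uncalled genes crossed 0 under some settings, and each value here is a log2 fold change. With all probes centred they were Cyp20a1 -1.15, Cyp26b1 -0.29, Cyp2j13 -0.30, Cyp2j9 -0.96, Cyp4v3 -0.41 and Cyp7b1 -0.90. With the tested genes centred they were Cyp21a1 0.15, Cyp2c38 0.12, Cyp2j8 0.56, Cyp2t4 0.57, Cyp46a1 0.25, Cyp4a10 0.27 and Cyp4f16 0.65. With the percentile over probes detected on all 4 arrays they were Cyp21a1 0.42, Cyp2c37 0.16, Cyp2c38 0.39, Cyp2d11 0.12, Cyp2j8 0.83, Cyp2t4 0.85, Cyp46a1 0.52, Cyp4a10 0.55, Cyp4f16 0.93 and Cyp4f18 0.08. The deposited value table gave Cyp20a1 -0.14, Cyp2j13 -0.28, Cyp4f16 0.09 and Cyp7b1 -0.02, quantile normalization Cyp20a1 -0.12, and normexp Cyp2t4 0.01, Cyp4f16 0.14 and Cyp7b1 -0.13. The mean of a gene's probes gave Cyp2c38 1.83 and Cyp4a10 0.97, and the percentile without outlier spots Cyp2j8 0.04, Cyp2t4 0.06 and Cyp4f16 0.14. When 1 array was left out, the values ran from -0.43 to 0.51 for Cyp20a1, -0.61 to 2.41 for Cyp26b1, -0.27 to 0.07 for Cyp2j8, -0.34 to 0.79 for Cyp2j9, -0.41 to 0.23 for Cyp2t4, -0.17 to 0.16 for Cyp4f16 and -1.09 to 1.67 for Cyp7b1.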
